A study of Mus musculus with 2 samples.

Results

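Prostaglandins and leukotrienes are lipid mediators made from arachidonic acid. Cyclooxygenases turn arachidonic acid into prostaglandin H2, which dedicated synthases convert to prostaglandin E2 or D2, while 5-lipoxygenase with its activating protein makes leukotriene A4, the precursor of leukotriene B4 and, through leukotriene C4 synthase, of the cysteinyl leukotrienes. In the colon, prostaglandin E2 is known for its part in inflammation and tumor growth, and mast cells, basophils and neutrophils are known sources of leukotrienes. The 10 genes described here were chosen by name from the 32291 genes of the deposited table: the cyclooxygenases Ptgs1 and Ptgs2, the prostaglandin E synthase Ptges, the prostaglandin D synthase Hpgds, the prostaglandin-degrading enzyme Hpgd, the prostaglandin E2 receptors Ptger2 and Ptger4, and the leukotriene genes Alox5, Alox5ap and Ltc4s. All 10 had a row, and each was followed through the 11 annotated cell types.

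The cells came from colitis-associated colon tumors of female mice on the C57Bl/6 background. Starting at an age of 6 to 10 weeks, the mice received azoxymethane at 10 mg/kg, 5 days before each of cycles 1 and 2 of dextran sodium sulfate. Dextran sodium sulfate was given at 2.5% in cycles 1 and 2 and at 2% in cycle 3. Tumors were taken 110 days after the first azoxymethane injection. Both groups carried Mir34a alleles flanked by loxP sites. Mir34a F/F mice had no Cre, and Mir34a Mye_KO mice carried in addition LysM-Cre, which is driven by the Lyz2 locus in macrophages, neutrophils and related myeloid cells. For each genotype, 6 to 8 tumors of 3 mice were pooled into 1 library, so a difference between the libraries has no replicate check, and genotype, pool and library cannot be told apart. Each interval printed is a 95% interval for counting error alone, so no p-value is given. The table held 20312 cells of the Mir34a F/F library and 18571 cells of the Mir34a Mye_KO library, with a median of 4787 and 7716 unique molecular identifiers (UMIs) per cell, and the Mir34a Mye_KO library was the deeper one in all 11 cell types. A total of 96 barcodes occurred in both libraries. A level is the mean, over the cells of a type, of the gene's UMIs scaled to 10000 UMIs in each cell. Levels come from the 3′ end of transcripts and are compared between cell types and libraries, not between genes.

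The features for the mature form, the hairpin and the stem-loop of miR-34a held 0 UMIs in either library. The feature for its primary transcript held 133 UMIs in macrophages of the Mir34a F/F library and 462 in those of the Mir34a Mye_KO library, at levels of 0.0723 and 0.111 UMIs per 10000, so it was not lower in the library labelled Mir34a Mye_KO. Where this feature lies relative to the deleted stretch is not given in the sources used here, and it was not used as a check of the labels. Lyz2, whose locus carries the Cre, stood at 1.44 in macrophages of the Mir34a F/F library and at 0.371 in those of the Mir34a Mye_KO library. Each annotated cell type had the highest summed level of its own marker list in both libraries, and no defining marker was at 0 in its own type. Cell by cell, 72.0% and 62.2% of all cells had their highest marker score for their own type, and 60.4% and 55.5% of mast cells. Basophil markers in mast cells summed to 17.7 and 21.4, against 31.4 and 29.2 in basophils. Epithelial markers in erythroid cells summed to 44.2 and 33.6, against 70.8 and 48.2 in epithelial cells. Basophils also held neutrophil markers, at a summed level of 459.9 and 396.2, against 1586 and 1038 in neutrophils.

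The sequence below is that of the microRNA deleted in the study, shown with its seed (bases 2 to 8) in capitals. It is the mature mmu-miR-34a-5p of RefSeq (chr4:150068473-150068494, plus strand, build GRCm38.p6).
mmu-miR-34a-5p: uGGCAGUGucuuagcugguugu
The reverse complement of the seed, CACTGCC, was searched on the transcript strand in the annotated 3′ UTRs of the genes of the table (GENCODE vM21, GRCm38). Of the 10 genes, 1 held it, Ptges. Among all genes of the table with an annotated 3′ UTR, 3129 of 20727 (15.1%) held it. The match in Ptges lies in the 3′ UTR at chr2:30891177-30891183 on the minus strand, and is shown in capitals with its flanks (chr2:30891165-30891194).
Ptges site: ggagtgaatagCACTGCCctctggtggtga
A match is a description of these letters and not a shown site, and the absence of these letters elsewhere says nothing on other forms of pairing.

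The 10 genes fell into distinct patterns over the cell types, as the map of mean levels shows. Ptgs2 was highest in basophils, macrophages and neutrophils, Ptgs1 in macrophages and mast cells, Hpgds in mast cells, Ptges in fibroblasts, Ptger2 in T cells, Ptger4 in dendritic cells, and Alox5 in mast cells and basophils. Macrophages held 71.6% of all Ptgs1 UMIs.

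**Figure D1:**
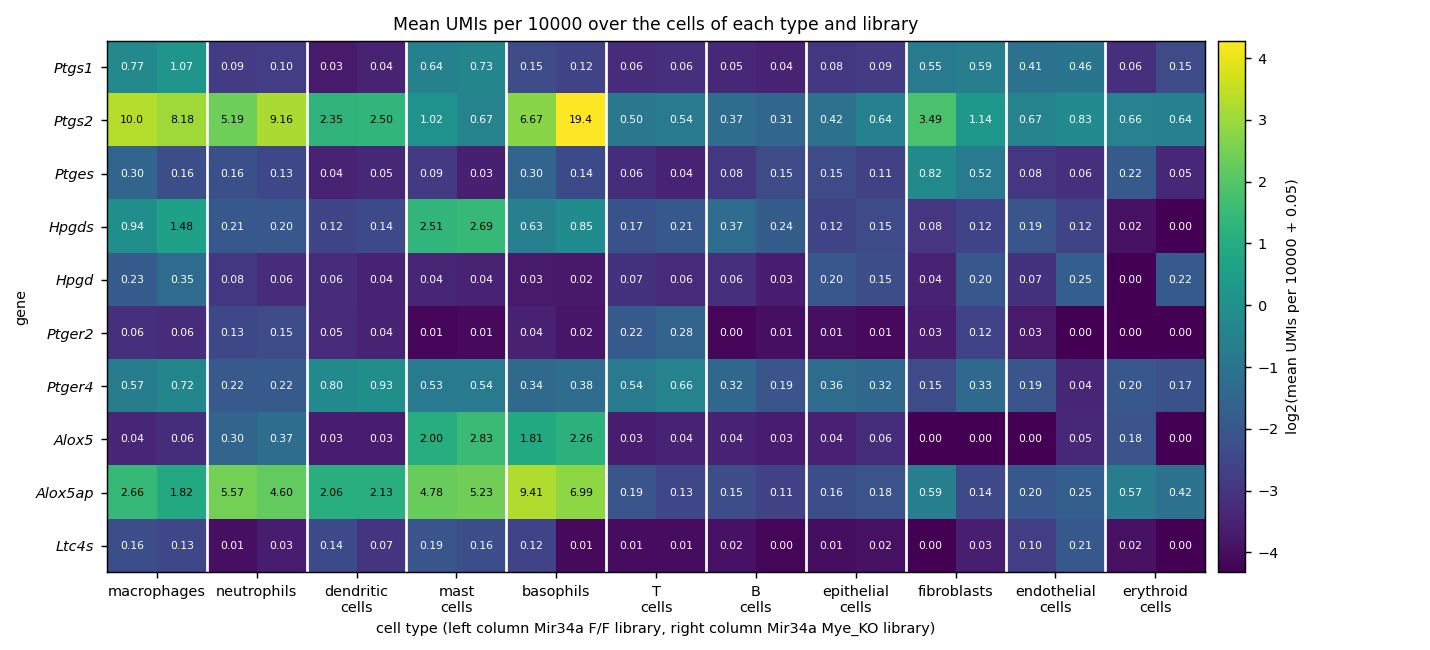
Mean UMIs per 10000 of the 10 genes (rows) in the 11 cell types, with the Mir34a F/F library in the left and the Mir34a Mye_KO library in the right column of each pair; color is log2(mean + 0.05) and the printed number is the mean. Within its row, Ptgs2 peaked in basophils, macrophages and neutrophils, and Alox5 in mast cells and basophils.

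Between the libraries, a gene was counted as higher or lower in a cell type where its mean differed at least 1.5-fold and at least 50 UMIs were present over both libraries. Of the combinations of gene and cell type, 68 had enough UMIs. In these, 6 were higher and 10 lower in the Mir34a Mye_KO library, where the same rule over all genes and cell types gave 5.43% higher and 15.4% lower. The counts of 6 and 10 are thus close to the shares of all genes, and the results below concern single genes. Under each of 9 alternative ways of processing, the differences of Ptgs2 in neutrophils, basophils and fibroblasts and of Ptges and Hpgds in macrophages kept their direction and stayed past 1.5-fold, and the others did not. The fibroblast difference nevertheless rested on few cells, since 6 of 57 fibroblasts of the Mir34a F/F library held 85.9% of the level. Without the 10% of fibroblasts with the most Ptgs2, the means were 0.549 and 0.493.

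**Figure D2:**
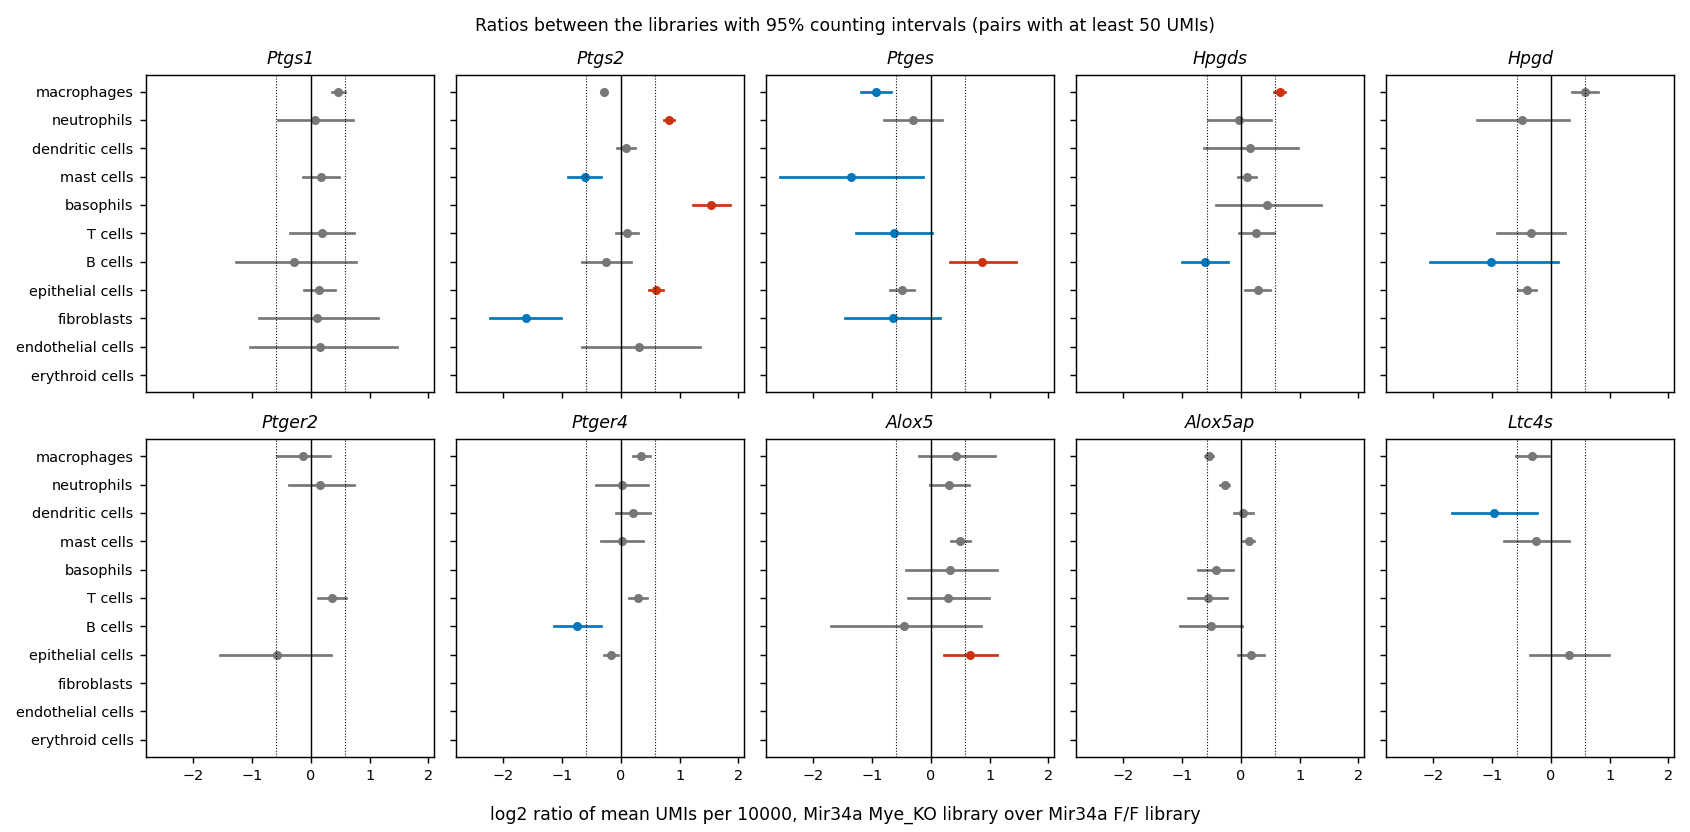
log2 ratio of the mean UMIs per 10000 (Mir34a Mye_KO library over Mir34a F/F library) for each gene and cell type with at least 50 UMIs; points are the ratios, lines the 95% counting intervals, dotted lines mark 1.5-fold, red is at least 1.5-fold higher and blue at least 1.5-fold lower. Ptgs2 was 0.82 higher in neutrophils and 1.54 higher in basophils, and 1.62 lower in fibroblasts on the log2 scale (a ratio of -1.62). Of the 57 fibroblasts of the Mir34a F/F library, 6 held 85.9% of the Ptgs2 level.

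Ptgs2 (chr1:150100031-150108227), the inducible cyclooxygenase, stood in neutrophils at 5.19 UMIs per 10000 (4.94 to 5.45) in the Mir34a F/F library and at 9.16 (8.93 to 9.40) in the Mir34a Mye_KO library. The log2 ratio was 0.82 (0.74 to 0.90), and it lay between 0.81 and 0.98 over the alternatives. In neutrophils, 1 of 9 genes with enough UMIs was higher and 0 were lower, where 5.86% of all genes were higher and 16.4% lower. Median mitochondrial content in neutrophils was 1.26% and 2.83%, and the neutrophil markers summed to 1586 and 1038. The log2 ratio was 0.89 in neutrophils with at least 500 genes and under 10% mitochondrial content and 0.88 in those whose highest marker score was their own. The median neutrophil held 1.77 and 4.85 Ptgs2 UMIs per 10000, and without the 10% of cells with the most Ptgs2 the mean was 2.70 and 6.00. The share of neutrophils with a Ptgs2 UMI was 29.0% and 45.0% after each cell was thinned to 1000 UMIs (27 and 1 shallower neutrophils left out), and 57.7% and 80.5% at full depth. In T cells, taken as a type that should hold little Ptgs2, the thinned shares were 3.83% and 4.92%.

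Basophils had the highest Ptgs2 level of all types in the Mir34a Mye_KO library, at 19.4 (17.7 to 21.2), against 6.67 (5.45 to 8.08) in the Mir34a F/F library. This is a log2 ratio of 1.54 (1.23 to 1.86). Of the 4 genes with enough UMIs in basophils, 1 was higher and 0 were lower, where 16.3% of all genes were higher and 13.8% lower. The libraries held 48 and 40 basophils only. Without the 10% of cells with the most Ptgs2 the means were 3.37 and 13.1. The log2 ratio was 1.81 in the 66.7% and 57.5% of basophils whose highest marker score was that of basophils. Neutrophil markers in basophils summed to 459.9 and 396.2, against 1586 and 1038 in neutrophils, where Ptgs2 stood at 5.19 and 9.16. Mast cell markers in basophils summed to 47.0 and 190.3, and Ptgs2 in mast cells stood at 1.02 and 0.667. The part of either marker list in the result was not tested.

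In macrophages, Ptgs2 reached 10.0 (9.85 to 10.2) and 8.18 (8.06 to 8.30), with a log2 ratio of -0.30, and the direction flipped to 0.18 when UMIs were summed over the cells instead of averaged. The median macrophage held 2.13 and 2.12 UMIs per 10000. Fibroblasts had 3.49 (2.70 to 4.43) and 1.14 (0.812 to 1.55), a log2 ratio of -1.62 (-2.22 to -1.03). That level rested on few cells: 6 of the 57 fibroblasts of the Mir34a F/F library held 85.9% of it, and without the 10% of cells with the most Ptgs2 in each library the means were 0.549 and 0.493. Neutrophil markers in fibroblasts summed to 31.9 and 4.75, and their part in the result was not tested. In fibroblasts, 0 of 3 genes were higher and 2 were lower, where 13.9% of all genes were higher and 17.1% lower. Mast cells had 1.02 and 0.667 (log2 ratio -0.62, -0.89 to -0.34), which stayed past 1.5-fold in 3 of 9 alternatives. Of 8 genes in mast cells, 0 were higher and 2 were lower, where 5.52% of all genes were higher and 16.7% lower. Epithelial cells had 0.423 and 0.640 (log2 ratio 0.60), past 1.5-fold in 5 of 8 alternatives. T cells, the type taken as holding little Ptgs2, stood at 0.499 and 0.535, so the epithelial level of the Mir34a F/F library lay below that background and no value with the background subtracted exists. B cells, which were not used as the background of Ptgs2, stood lower, at 0.368 and 0.309. Of 10 genes in epithelial cells, 2 were higher and 0 lower, where 3.69% of all genes were higher and 13.1% lower. In epithelial cells whose highest marker score was their own, 70.1% and 48.0% of the type, the log2 ratio was 0.32, under the limit. Epithelial markers summed to 70.8 and 48.2 in epithelial cells, macrophage markers to 1.68 and 2.51, and the median mitochondrial content was 11.2% and 18.3%. In epithelial cells with at least 500 genes and under 10% mitochondrial content (5253 of 11614 and 3515 of 9865), the log2 ratio of Ptgs2 was 1.11. The part of the macrophage markers in the result was not tested.

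**Figure D3:**
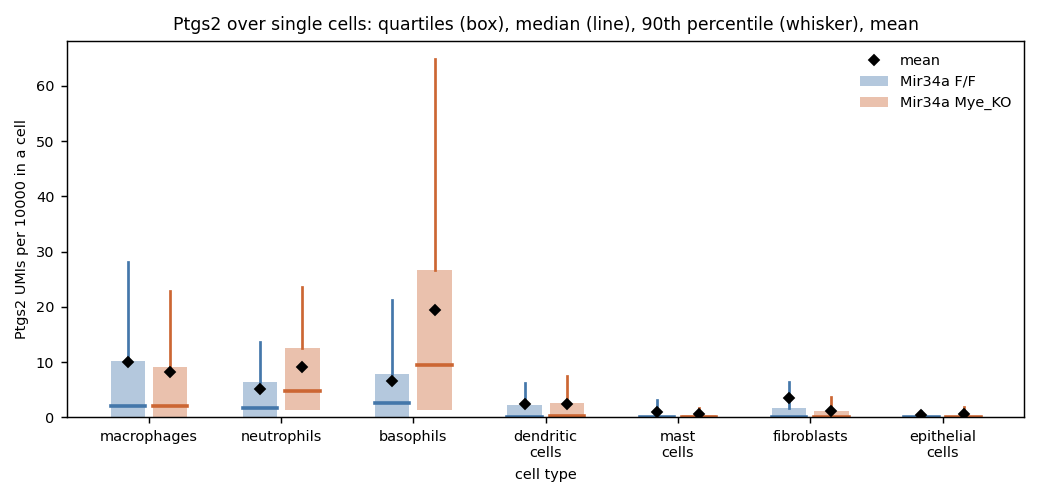
Ptgs2 UMIs per 10000 in single cells of 7 cell types in the Mir34a F/F (blue) and Mir34a Mye_KO (orange) libraries; boxes span the quartiles, colored lines are medians, whiskers end at the 90th percentile and diamonds are means. The box and the median were higher in neutrophils and basophils of the Mir34a Mye_KO library, whereas in fibroblasts the mean of the Mir34a F/F library (3.49) lay above the upper quartile (1.67).

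Ptgs1 (chr2:36230426-36252272), the constitutive cyclooxygenase, was highest in macrophages, at 0.775 (0.730 to 0.821) and 1.07 (1.02 to 1.12), followed by mast cells at 0.643 and 0.726. Fibroblasts and endothelial cells came next, and neighbours in this order did not separate by their intervals in both libraries. The log2 ratio in macrophages was 0.47 (0.36 to 0.58), below the 1.5-fold limit, with a range of 0.34 to 0.61 over the alternatives. It passed that limit in 1 of 9, when cells were thinned (0.61). In endothelial cells 2 genes, Ptgs1 and Ptgs2, had enough UMIs, and 0 were higher or lower, where 8.01% of all genes were higher and 17.8% lower.

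Hpgds (chr6:65117293-65144908), the hematopoietic prostaglandin D synthase, was led by mast cells, at 2.51 (2.28 to 2.74) and 2.69 (2.54 to 2.84), above macrophages in both libraries. In macrophages the level was 0.935 (0.881 to 0.992) in the Mir34a F/F library and 1.48 (1.43 to 1.53) in the Mir34a Mye_KO library, a log2 ratio of 0.66 (0.56 to 0.76) that lay between 0.61 and 1.12 over the alternatives. When macrophages were split by a UMI of Mrc1 (below), the ratio of means was under 1.5-fold on each side. The thinned share of macrophages with an Hpgds UMI was 7.89% and 12.2%, against 2.79% and 2.28% in B cells. Of the 10 genes in macrophages, 1 was higher and 1 lower, where 3.93% of all genes were higher and 9.46% lower. B cells had 0.366 and 0.239 Hpgds UMIs per 10000 (log2 ratio -0.61), which stayed past 1.5-fold in 2 of 8 alternatives. B cells are the type taken as the background of Hpgds, and subtracting their level gave the 1.12 in macrophages. In the Mir34a F/F library, however, the B cell level (0.298 to 0.445) lay above neutrophils (0.208), T cells (0.174), dendritic cells (0.123) and epithelial cells (0.121). Whether the B cell level is background was not tested. On the sides of a plasma cell marker gate (at least 3 of 5 marker genes), the B cell ratios were 0.09 and -0.43.

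Ptges (chr2:30889471-30929863), the inducible prostaglandin E synthase that acts after Ptgs2, had its highest mean in fibroblasts, at 0.821 (0.561 to 1.16) and 0.523 (0.338 to 0.773). In the Mir34a F/F library this overlapped the intervals of basophils (0.124 to 0.596) and erythroid cells (0.0425 to 0.667), on 8 and 4 UMIs. In macrophages it stood at 0.303 (0.269 to 0.340) and 0.159 (0.139 to 0.180). This log2 ratio of -0.93 (-1.19 to -0.68) lay between -1.33 and -0.64 over the alternatives. Within macrophages it was -0.30 (-0.67 to 0.09) in cells with a UMI of Mrc1 and -1.01 (-1.34 to -0.69) in the others. Macrophages with a UMI of Arg1, which held more Ptges, made up 41.7% and 26.7% (20.8% and 9.75% when thinned), and the ratio was -0.76 (-1.07 to -0.46) within them and -0.79 (-1.20 to -0.37) in the others. Mast cells had a log2 ratio of -1.35 on 28 and 26 UMIs, which turned to 0.22 when cells were thinned. T cells, the type taken as the background of Ptges, stood at 0.0599 and 0.0388, a ratio of -0.63 (-1.27 to 0.01). The mast cell level of the Mir34a Mye_KO library (0.0347) lay below that background. Fibroblasts had a ratio of -0.65 (-1.47 to 0.15). In T cells 1 of 9 genes was lower and 0 were higher, where 2.90% of all genes were higher and 14.2% lower. In B cells the level was 0.0823 and 0.150 (log2 ratio 0.87, 0.33 to 1.44). Cells with at least 3 of 5 plasma cell markers made up 33.0% and 69.1% of the B cells at full depth, where the median B cell held 3664 and 20852 UMIs. Thinned to 1000 UMIs a cell, the shares were 14.3% and 31.7%. Cells that passed the gate were deeper than the others, with medians of 14768 against 2916 and 31133 against 6617 UMIs. Within them Ptges was 0.116 and 0.185, a log2 ratio of 0.68 (0.15 to 1.24). Of 8 genes in B cells, 1 was higher and 3 were lower, where 5.50% of all genes were higher and 29.4% lower.

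Hpgd (chr8:56294585-56321043), the dehydrogenase that inactivates prostaglandins, had its highest mean in macrophages, at 0.235 (0.208 to 0.265) and 0.350 (0.319 to 0.384), a log2 ratio of 0.58 (0.36 to 0.80) just under the limit of 0.585. It passed that limit in 7 of 9 alternatives, with a range of 0.43 to 1.09. In B cells the ratio was -1.02 (-2.06 to 0.12) on 21 and 48 UMIs, and thinning turned it to 0.75. The B cell levels (0.0620 and 0.0307) were below those of T cells (0.0697 and 0.0550), the type taken as the background of Hpgd. Epithelial cells stood at 0.204 and 0.154 (log2 ratio -0.40, -0.56 to -0.25). In the Mir34a F/F library their interval (0.191 to 0.216) overlapped that of macrophages, and summed UMIs put them above, at 0.263 against 0.228 per 10000. In the Mir34a Mye_KO library endothelial cells (0.247), erythroid cells (0.220) and fibroblasts (0.204) had higher means than epithelial cells, on 9, 4 and 2 UMIs, and with intervals that overlapped that of macrophages. Within epithelial cells, those with a UMI of Krt20, a gene of mature surface cells, held 1.65 and 1.19 times the Hpgd of the others in the 2 libraries. Cells with Krt20 were deeper, with medians of 7805 against 4257 and 11021 against 4861 UMIs, and the part of depth was not tested.

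Of the receptors, Ptger2 (chr14:44988195-45003820) was highest in T cells, at 0.222 (0.193 to 0.254) and 0.285 (0.260 to 0.312), above neutrophils in both libraries. Among T cells, those with a Cd8a UMI held 0.22 and 0.26 times the Ptger2 of the others, on 7 and 19 UMIs in 165 and 170 cells. These cells were deeper, with medians of 5404 against 3473 and 11066 against 7903 UMIs, and the part of depth was not tested. Ptger4 (chr15:5206661-5244187) was highest in dendritic cells, at 0.802 (0.673 to 0.948) and 0.926 (0.833 to 1.03), ahead of macrophages (0.566 and 0.721), T cells (0.540 and 0.662) and mast cells (0.532 and 0.538). In B cells it was lower in the Mir34a Mye_KO library, at 0.324 and 0.193 (log2 ratio -0.74), where 4 of 9 alternatives stayed past 1.5-fold. Among B cells with plasma cell markers the ratio was -0.51 (-1.04 to 0.05).

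Alox5 (chr6:116410077-116461178), the 5-lipoxygenase, was highest in mast cells at 2.00 (1.80 to 2.21) and 2.83 (2.69 to 2.97) and in basophils at 1.81 (1.08 to 2.84) and 2.26 (1.80 to 2.79), with neutrophils at 0.296 and 0.368. The log2 ratio in mast cells was 0.50 (0.34 to 0.67), with a range of 0.37 to 0.62 over the alternatives. It passed 1.5-fold in 1 of 9, after centring on the median of all genes (0.62). Epithelial cells had 0.0372 and 0.0592, a ratio of 0.67 (0.22 to 1.13) that stayed past 1.5-fold in 7 of 8 alternatives. These levels are near those of T cells (0.0306 and 0.0375) and B cells (0.0394 and 0.0288), and no value with the background subtracted exists, since epithelial cells are the background type of Alox5. Mast cell markers in epithelial cells summed to 6.04 and 9.41, with 0 of 6 at 0, mast cells held 66.4% of all Alox5 UMIs, and the part of these markers in the result was not tested. Alox5ap (chr5:149264767-149288153), which presents arachidonic acid to Alox5, was found in more types: basophils had 9.41 and 6.99, neutrophils 5.57 and 4.60, mast cells 4.78 and 5.23, macrophages 2.66 and 1.82, and dendritic cells 2.06 and 2.13. Its log2 ratio in macrophages was -0.55 (-0.61 to -0.48). Alox5 in macrophages stood at 0.0443 (0.0299 to 0.0632) and 0.0598 (0.0471 to 0.0750), which overlapped the epithelial background in both libraries, and subtracting it turned the log2 ratio from 0.43 to -3.60. Ltc4s (chr11:50236461-50238616), the leukotriene C4 synthase, stood at 0.191 and 0.160 in mast cells, 0.0976 and 0.208 in endothelial cells and 0.161 and 0.129 in macrophages, and these levels did not separate by their intervals in both libraries. The endothelial levels rested on 9 UMIs in each library. In dendritic cells it was 0.142 and 0.0729 (log2 ratio -0.96, -1.67 to -0.23), where 8 of 9 alternatives stayed past 1.5-fold. Of 5 genes in dendritic cells, 0 were higher and 1 was lower, where 6.84% of all genes were higher and 8.23% lower.

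Both Alox5 and Alox5ap UMIs were found in 35.2% and 69.3% of mast cells at full depth, but in 9.04% and 9.71% after thinning to 1000 UMIs, so the share at full depth moved with the depth of the libraries. The thinned share was 1.07% and 1.02% in neutrophils and 0.0912% and 0.154% in macrophages.

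**Figure D4:**
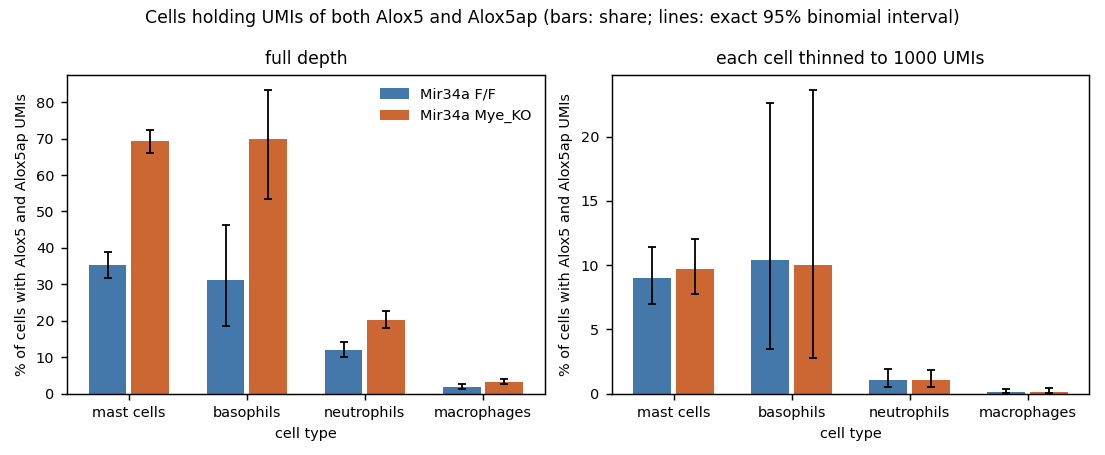
Share of cells with UMIs of both Alox5 and Alox5ap in 4 cell types at full depth (left) and after thinning each cell to 1000 UMIs (right), with exact 95% binomial intervals, in the Mir34a F/F (blue) and Mir34a Mye_KO (orange) libraries. The libraries differed at full depth in mast cells (35.2% and 69.3%) and stood close after thinning (9.04% and 9.71%).

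Macrophages were not uniform. Cells with a UMI of Mrc1, the mannose receptor that marks tissue-resident and M2-like macrophages, numbered 833 of 2208 (37.7%) and 1223 of 2601 (47.0%), and made up 12.5% and 18.5% when cells were thinned. They held 5.06 and 3.74 times the Ptgs1 of the other macrophages, 3.52 and 4.29 times the Hpgds and 2.78 and 2.46 times the Hpgd, but 0.36 and 0.37 times the Alox5ap and 0.35 and 0.75 times the Ptgs2. Cells with a UMI of Ly6c2, a gene of recently arrived monocytes, showed the opposite order, with 4.18 and 6.25 times the Alox5ap, 1.62 and 1.82 times the Ptgs2, and 0.22 and 0.34 times the Ptgs1 of the others. Cells with Arg1 held 1.66 and 2.32 times the Ptgs2 and 1.94 and 1.97 times the Ptges.

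The Ptgs2 ratio between the libraries ran in opposite directions on the sides of the Mrc1 gate. In Mrc1-positive macrophages Ptgs2 stood at 4.63 and 6.96 (log2 ratio 0.59), and in the other macrophages at 13.3 and 9.27 (log2 ratio -0.52). With summed UMIs the ratios were 0.72 and 0.08, so the second did not hold its direction. Hpgds was 1.69 and 2.49 in Mrc1-positive macrophages (log2 ratio 0.56) and 0.479 and 0.580 in the others (0.27), where summed UMIs gave 0.83 and -0.14. Both ratios of means were under the 1.5-fold limit. Cells on the positive side of the gate were deeper, with medians of 10915 and 18462 UMIs against 5854 and 6140 on the other side, and the part of depth was not tested.

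**Figure D5:**
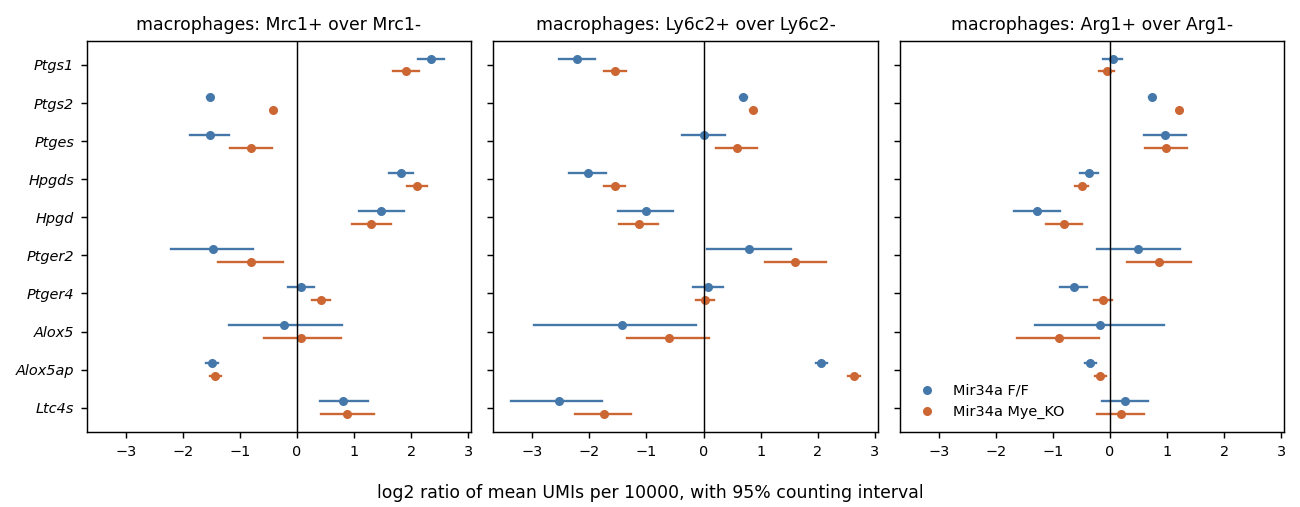
log2 ratio of the mean UMIs per 10000 in macrophages with a UMI over those without a UMI of Mrc1, Ly6c2 or Arg1, for each gene and library (Mir34a F/F blue, Mir34a Mye_KO orange), with 95% counting intervals. Ptgs1 and Hpgds lay to the right for Mrc1 and to the left for Ly6c2, and Alox5ap did the reverse, in both libraries.

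Epithelial cells with UMIs of at least 3 of 8 tuft cell markers numbered only 12 and 7. Tuft cells are a chemosensory cell type known to express Hpgds and Ltc4s. The mean Ltc4s was 0.19 and 3.91 UMIs per 10000 on 5 and 22 UMIs, against 0.0126 and 0.0156 in all epithelial cells, and Hpgds was 0.73 and 2.81 on 12 and 13 UMIs. With at least 2 of the markers (213 and 155 cells) Ltc4s was 0.0107 and 0.178. The libraries were not compared on so few cells.

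A wider list of 45 genes (44 with a row) of arachidonic acid release, prostanoid synthesis, transport and reception and of leukotriene synthesis and reception gave 195 combinations with a cell type, of which 18 were higher and 41 lower, beside 5.43% and 15.4% of all genes. After centring each cell type on the median ratio of all genes the counts were 29 and 23, so the excess of lower ratios moved with the scaling. The 5.43% and 15.4% were taken without centring, so they are no reference for the centred counts in this paragraph. Shares of all genes after centring are not given here, and the centred counts are not read as a result about these genes. Leukotriene receptors were higher in 4 of 16 combinations and lower in 0, and the further leukotriene enzymes were lower in 12 of 25 and higher in 0. After centring, the receptors were higher in 5 and lower in 0, and the enzymes lower in 4 and higher in 1. Cysltr2, a cysteinyl leukotriene receptor, stood at 0.771 and 1.10 in T cells (log2 ratio 0.52, under the limit) and at 0.133 and 0.351 in B cells (1.39). Cells that passed the plasma cell marker gate made up 33.0% and 69.1% of B cells (14.3% and 31.7% when thinned). The part of these cells and of depth in the Cysltr2 ratio was not tested. Mgst3, a microsomal glutathione transferase, was lower in 7 of 9 cell types but in 2 of 9 after centring, dendritic cells (-0.73) and T cells (-0.88), and was then higher in 1, fibroblasts. It stood at 1.92 and 1.21 in epithelial cells. Lta4h, which makes leukotriene B4, was lower in 2 of 9 (1 of 9 after centring). These were B cells (-0.60) and endothelial cells (-0.84, -1.93 to 0.21, on 44 and 27 UMIs). Its highest level was in dendritic cells, at 0.863 and 0.654, with a log2 ratio of -0.40 that was not past the limit. Ptges3, a prostaglandin E synthase and chaperone cofactor, was lower in 2 of 10 (1 of 10 after centring). Tbxas1, the thromboxane synthase, was higher in 2 of 7, dendritic cells (0.63) and epithelial cells (0.78), and lower in 1, B cells (-1.01). Its highest level was in macrophages, at 1.35 and 1.73, with a log2 ratio of 0.36 under the limit. Cyp4f18, which inactivates leukotriene B4, was higher in 1 of 8 cell types and lower in 2 (2 and 1 after centring). It stood at 2.01 and 4.11 in basophils (log2 ratio 1.03), on 40 and 142 UMIs in cells that also held neutrophil markers. In neutrophils it stood at 2.03 and 3.00 (0.56, under the limit). The lower ratios were in T cells (-0.78) and B cells (-0.68). Slco2a1, the prostaglandin importer, was an endothelial gene here, at 4.98 and 5.76. Mgll led in endothelial cells too, at 1.01 and 1.41, and Abcc4, a prostaglandin exporter, at 1.10 and 1.42. Pla2g4a, the phospholipase that frees arachidonic acid, had its highest mean in fibroblasts, at 1.21 and 0.972 on 41 and 74 UMIs. Macrophages were close, at 0.834 and 0.898 on 1635 and 3362 UMIs. Dpep1 also had its highest mean in fibroblasts, at 0.820 and 0.597 on 17 and 59 UMIs. Abcc1, which exports leukotriene C4, led in mast cells at 1.20 and 1.44.

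Over the 22 values of 11 cell types in both libraries, the genes whose pattern was most like that of a member were found among 12732 genes by Pearson correlation, as a description. For Ptgs2 these were Nlrp3 (0.94), Il1b (0.91) and Osm (0.91), and for Alox5ap Tyrobp (0.96), Emilin2 (0.94) and Fcer1g (0.93). For Alox5 they were Tax1bp1 (0.94), Gcnt1 (0.93) and Il4 (0.91), for Ptgs1 Itga9 (0.92), Plcb1 and Lrp12, and for Hpgds Gpr34 (0.90), Cx3cr1 and Osbpl8. Hpgd ran with Tanc2 (0.85), Mertk and Aco1, Ltc4s with Gngt2 (0.84), Renbp and Acer3, and Ptger2 with Il17a (0.84), Ipcef1 and Nmrk1. The closest genes were less alike for Ptger4 (Cd48 at 0.83, then Mcm4 and Ciao2a) and for Ptges (C3 at 0.78, then Fzd1 and Col14a1). The values share 2 libraries and the depth of each.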

How the data were processed

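Per the labels and the methods of the study, the authors prepared 10x Chromium 3′ libraries, counted UMIs with Cell Ranger 7.2.0 against an mm10 reference, filtered cells on expressed genes and mitochondrial RNA, removed doublets with Scrublet, and deposited natural log values, ln(1 + UMIs per 10000), with a cell type for each cell. Whether intronic reads were counted is not given in the sources used here. Whole UMIs were recovered from the deposited natural log values. Levels are means over cells, and shares of cells have exact binomial intervals. For thinned shares each cell was drawn down to 1000 UMIs, which left out 840 and 181 shallower cells. The planned interval of a ratio took its width from summed UMIs and, tested on simulated data, was too narrow for a ratio of means. The intervals printed instead use effective counts, each UMI weighted by the depth of its cell, a choice made after seeing the data. The thinned shares of cells that passed a marker gate were also added after seeing the data. The 1.5-fold calls use no interval. With 1 library per genotype no test across samples was made. The members and lists were chosen with earlier results of these data known. Named were the 10 members, the markers of the gates, genes of the wider list with a level of at least 0.5 in both libraries of a cell type, and for each member the 3 genes of at least 1000 UMIs with the highest Pearson correlation of log2(mean + 0.05). Computations ran in Python 3.11.15 (pandas 2.3.3, scipy 1.17.1).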

Additional observations from a re-analysis of the deposited data

Results flagged for a closer look

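For Ptgs2, Ptges and Hpgds the ratio between the libraries passed 1.5-fold in one direction in some cell types and in the other direction elsewhere, with counting intervals off 0 on both sides. The differences between cell types were not tested, and several of the values below did not hold under the alternatives.

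Ptgs2 had log2 ratios (Mir34a Mye_KO over Mir34a F/F) of 0.82 in neutrophils and 1.54 in basophils, both past 1.5-fold in 9 of 9 alternatives. It had 0.60 in epithelial cells, past 1.5-fold in 5 of 8, with 0.32 in cells whose highest marker score was their own. In epithelial cells under 10% mitochondrial content with at least 500 genes (5253 of 11614 and 3515 of 9865) it had 1.11. The epithelial level of the Mir34a F/F library (0.423) was below that of T cells (0.499), the type taken as background, and above that of B cells (0.368). In mast cells it had -0.62, past 1.5-fold in 3 of 9. In fibroblasts it had -1.62, but 6 of the 57 fibroblasts of the Mir34a F/F library held 85.9% of the level, and without the 10% of cells with the most Ptgs2 the means were 0.549 and 0.493.

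Ptges had -0.93 in macrophages, past 1.5-fold in 9 of 9 alternatives. In macrophages with a UMI of Mrc1 the ratio was under 1.5-fold, with a counting interval that spanned both directions, and in the others it was past 1.5-fold. In B cells Ptges had 0.87, past 1.5-fold in 7 of 9, with 0.52 when thinned and 0.46 with the pseudocount. In mast cells it had -1.35 on 28 and 26 UMIs, with 0.22 when thinned and -0.49 with the pseudocount, and with a level in the Mir34a Mye_KO library (0.0347) below that of T cells (0.0388), the type taken as background.

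Hpgds had 0.66 in macrophages, past 1.5-fold in 9 of 9 alternatives. On each side of the Mrc1 gate, however, its ratio of means was under 1.5-fold. Cells with a UMI of Mrc1, which held more Hpgds, made up 37.7% and 47.0% of macrophages (12.5% and 18.5% when thinned). Their part in the result was not tested. In B cells Hpgds had -0.61, past 1.5-fold in 2 of 8, with -0.40 from summed UMIs and -0.23 when thinned, where the median ratio of all genes was -0.34. B cells are the type taken as the background of Hpgds, so the lower side rests on that type alone. Their level in the Mir34a F/F library (0.366) lay above T cells (0.174) and epithelial cells (0.121), and whether it is background was not tested. Within B cells that passed the plasma cell marker gate the Hpgds ratio was 0.09.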

How the results depend on the processing

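No paired analysis was possible because each genotype was 1 library. For the 68 combinations of member and cell type, the 6 higher became 11 with summed UMIs, 10 in cells with at least 500 genes and under 10% mitochondrial content, 11 after thinning, 10 after subtracting a background cell type (47 combinations), 3 with a pseudocount of 0.1, 1 at a fold of 2 and 10 at a minimum of 20 UMIs. The 10 lower became 4 with cell totals that left out 412 immunoglobulin, mitochondrial and rRNA-like genes, 6 when centred on the median of all genes, 2 with the pseudocount, 3 at a fold of 2 and 5 at a minimum of 200 UMIs, but 13 after thinning, 13 in marker-concordant cells and 11 at a minimum of 20 UMIs. Of the wider list, the 41 lower became 24 with those totals and 23 when centred but 49 with summed UMIs, and the 18 higher became 29 when centred. Shares of all genes under the same alternatives are not given here. The median log2 ratio of all genes was -0.34 in B cells, -0.23 in epithelial cells, -0.16 in neutrophils, -0.15 in endothelial cells, -0.13 in T cells and -0.12 in mast cells. Thinning reversed Ptges in mast cells to 0.22 and Hpgd in B cells to 0.75; the cause was not tested.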
